A study of Bubalus bubalis with 12 samples.

Results

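The genes described here encode 10 amino acid and peptide transporters of the solute carrier (SLC) families, taken by symbol out of the 34037 genes measured in the ruminal wall of dairy buffaloes. They are SLC7A5 (NCBI gene 102399057), SLC3A2 (102412834), SLC7A8 (102401439), SLC1A5 (102404692), SLC1A4 (102400304), SLC1A1 (102410542), SLC38A1 (102393940), SLC38A2 (102394570), SLC7A1 (102412921) and SLC15A1 (102400572). In all, 8 of the 10 were expressed at a level that could be compared between diets, while SLC7A8 and SLC15A1 did not exceed 3 reads in any animal.

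Ruminal wall was taken at slaughter from 12 adult Italian Mediterranean dairy buffaloes (Bubalus bubalis). In the control group, 6 animals were fed a total mixed ration (TMR), and in the treated group, 6 animals received TMR in which green ryegrass made up about 30% of the diet. Both diets were formulated to the same nitrogen and energy content, but the treated ration also held more forage relative to concentrate, less hay and silage, and no soybean meal, so that the effect of the fresh grass and that of the other feed changes cannot be told apart. Every library was made from the total RNA of 1 animal and no animals were pooled.

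Mammalian cells take up amino acids through several transporter systems that differ in substrate and in what they carry along. Exchangers such as the SLC7A5-SLC3A2 pair bring in one amino acid while another leaves, whereas sodium-coupled carriers such as SLC38A2 concentrate amino acids against a gradient and supply the exchangers. The ruminal epithelium is a stratified squamous epithelium best known for absorbing and metabolising the short-chain fatty acids of microbial fermentation, and intact small peptides are classically taken up in the small intestine by SLC15A1.

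Levels are given as FPKM, the fragments counted on a gene scaled by its length and by the fragments counted on all genes of that animal, and can therefore be compared between genes. Depth was 10531541 to 12948372 fragments per animal, and the reads behind each value were worked out from the deposited values. Squamous epithelium genes were present at more than 1 FPKM in every animal for 8 of the 9 found in the table, with KRT5, a basal keratin, at 451 to 2372 FPKM. LORICRIN, a cornified envelope gene, was the exception at 0 to 0.489 FPKM, and KRT14 was not found under that name. Muscle genes were far lower, with ACTA2, the smooth muscle actin, at 1.25 to 8.78 FPKM. The summed FPKM of 7 smooth muscle genes was 13.3 to 32.5 in the control and 4.47 to 23.9 in the treated group. Of the 7, 3 (ACTG2, CNN1 and DES) were lower in treated animals at an unadjusted limma p below 0.05, against 0.809% of all genes tested. None passed the adjustment over all genes. ACTG2 and CNN1 reached down to 0 FPKM, where the 0.01 FPKM added before taking logs sets the value. The part of the smooth muscle difference in the transporter results was not tested beyond a fit with a muscle and fibroblast score. Fibroblast sums (6 genes) were 40.8 to 258 and 17.5 to 172 FPKM, respectively. Control replicate 6 and treated replicate 6 stood apart from the other libraries, with a median correlation with the remaining animals of 0.886 and 0.883 against 0.900 to 0.919, and with the lowest squamous epithelium sums of the series (2736 and 2892 FPKM against up to 5264). Not every squamous gene was low in them, since 8 of the 9 in control replicate 6 and 7 of the 9 in treated replicate 6 were below their mean over the 12 animals, while DSG3, a desmosomal cadherin, was at 971 FPKM, the highest of the series, and at 843 FPKM, respectively. Differences between diets without these animals are given for each transporter they move by more than 1.5 times.

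No difference between diets was detected for any of the 8 transporters tested. The limma test called 0 of them at an unadjusted p below 0.05, a threshold passed by 1.83% of the 16450 genes tested (301 genes, with 1.02% higher and 0.809% lower in treated animals). After Benjamini-Hochberg adjustment over all genes, no gene of the table passed, and the smallest adjusted limma p was 0.9996. The values of the 2 groups overlapped for all 10 transporters, as they did for all genes tested except 0.0669%. Fold changes were positive for 3 and negative for 5 transporters and lay between -0.26 and 0.20 on the log2 scale. The median log2 fold change (treated minus control) of the 8 was -0.08, against 0.0016 over all genes tested, and without regard to sign the medians were 0.158 and 0.123. Within the diet groups, 5 of the 8 varied more between animals than the median gene did (SD of log2 FPKM 0.447).

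**Figure D1:**
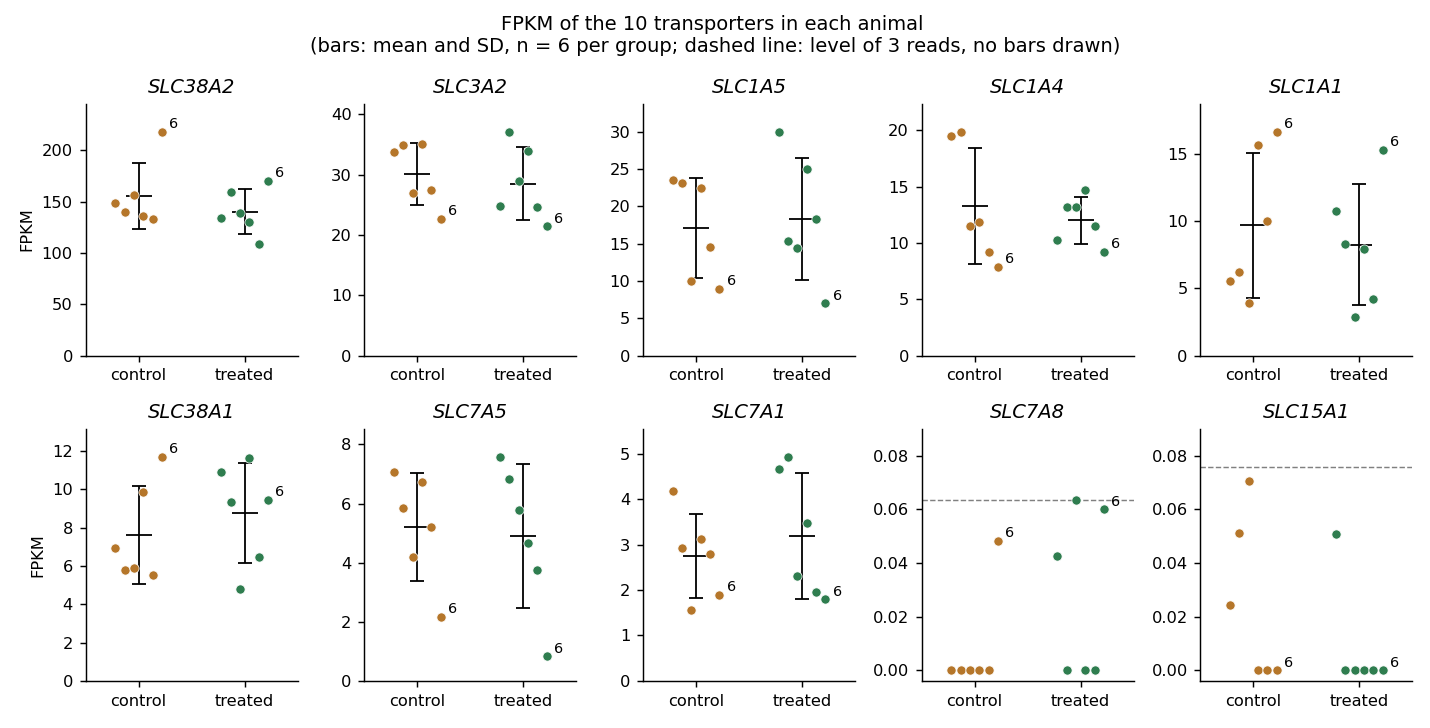
FPKM of each of the 10 transporters (vertical axes) in the 6 control and 6 treated animals (1 point per animal, replicate 6 of each group marked); bars give the mean and SD of each group, and the dashed lines mark the level of 3 reads in the median animal. The groups overlap in every panel, and replicate 6 of both groups lies at the lower end for SLC7A5, SLC3A2, SLC1A5 and SLC1A4 and at or near the upper end for SLC1A1 and SLC38A2.

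SLC7A5 and SLC3A2 encode the light and the heavy chain of the main exchanger for large neutral amino acids such as leucine. The light chain moves the amino acids, and the heavy chain, which also serves other light chains, brings the complex to the plasma membrane. SLC7A5 was at 2.16, 5.52 and 7.07 FPKM (lowest, median and highest) in the control group and at 0.837, 5.22 and 7.57 FPKM in the treated group. Both lowest values belonged to the animals numbered 6, and the remaining 10 animals lay between 3.76 and 7.57 FPKM. This was the most variable transporter of the set, with a 9.05-fold distance from the lowest to the highest animal and a within-group SD larger than that of 81.4% of the genes tested. The lowest value rested on 44 reads, for which counting error is 15.1%, against a coefficient of variation of 40.6% over the 12 animals. The diet difference of SLC7A5 was -0.26 on the log2 scale (SE 0.48, limma unadjusted p = 0.594, exact permutation p = 0.682), and its 95% interval ran from a 0.407-fold to a 1.71-fold level in treated animals. The log2 difference was -0.50 without control replicate 6, 0.19 without treated replicate 6 and -0.04 without both. With the muscle and fibroblast score as a covariate it was -0.70 (SE 0.54, limma unadjusted p = 0.223), the largest value of any transporter under the settings tried.

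SLC3A2 was much steadier, at 22.7, 30.6 and 35.0 FPKM (lowest, median and highest) in the control and 21.4, 26.9 and 37.1 FPKM in the treated group. Its highest value was only 1.73 times its lowest. The log2 difference was -0.09 (SE 0.16, limma unadjusted p = 0.577, exact permutation p = 0.574), with a 95% interval from 0.744-fold to 1.19-fold. It was -0.17 without control replicate 6, -0.01 without treated replicate 6, -0.09 without both and -0.17 with the covariate. SLC7A8, which encodes an alternative light chain for neutral amino acids, had 0 reads in 8 animals, and 2 or 3 reads in control replicate 6 and treated replicates 1, 3 and 6. At this depth 3 reads correspond to 0.0634 FPKM in the median animal, and no difference below that level was detectable.

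Because the heavy chain is shared, it was set beside the light chains known to pair with it (SLC7A5, SLC7A6, SLC7A7, SLC7A8, SLC7A10 and SLC7A11), a grouping made after the values were seen. The summed FPKM of these light chains was 7.51 to 16.1, and SLC3A2 exceeded the sum in every animal, by 1.76 to 3.40 times (median 2.64). SLC7A5 supplied a median of 50.0% of the summed light chain FPKM. SLC7A11, the light chain of the cystine-glutamate exchanger, came next with a median of 23.0%. In treated replicate 6 the order was different, since SLC7A11 made up 52.9% and SLC7A5 8.58% of the sum there. SLC7A10 was at 0 in all animals. The log2 ratio of SLC7A5 to SLC3A2 was -2.61 ± 0.41 (SD, n = 6) in control and -2.78 ± 1.00 (SD, n = 6) in treated animals, a difference of -0.17 (exact permutation p = 0.768, adjusted over 4 ratios 0.768).

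SLC1A5 and SLC1A4 encode sodium-dependent exchangers of small neutral amino acids, of which SLC1A5 is the principal glutamine exchanger. SLC1A5 was at 8.97, 18.5 and 23.5 FPKM (lowest, median and highest) in control and 6.98, 16.7 and 30.0 FPKM in treated animals. The control animals lay either at 8.97 to 14.6 FPKM or at 22.4 to 23.5 FPKM. The animals numbered 6 were again the lowest of their groups. Its log2 difference was 0.07 (SE 0.35, limma unadjusted p = 0.850, exact permutation p = 0.870), with an interval from 0.620-fold to 1.77-fold. The direction turned when control replicate 3 or 6 or treated replicate 1 or 4 was left out, with values down to -0.10. It was 0.32 without treated replicate 6 and 0.15 without both animals numbered 6, and with the muscle and fibroblast covariate it was -0.15.

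SLC1A4 was at 7.87, 11.7 and 19.9 FPKM in control and 9.20, 12.3 and 14.7 FPKM in treated animals. Control replicates 1 and 2 were at 19.5 and 19.9 FPKM while no other animal exceeded 14.7 FPKM, and the control SD of 5.17 FPKM was larger than the treated SD of 2.06 FPKM (n = 6 each). This difference in spread was not tested. The means differed by -0.08 on the log2 scale (SE 0.23, limma unadjusted p = 0.745, exact permutation p = 0.736), with an interval from 0.674-fold to 1.33-fold. The difference was -0.21 without control replicate 6, -0.0030 without treated replicate 6 and -0.14 without both animals numbered 6, and it turned to 0.05 and 0.06 without control replicate 1 or 2. SLC1A5 exceeded SLC1A4 in 10 of 12 animals, and their log2 ratio was 0.34 ± 0.40 (SD, n = 6) in control and 0.49 ± 0.67 (SD, n = 6) in treated animals (difference 0.14, exact permutation p = 0.684, adjusted over 4 ratios 0.768).

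SLC1A1 belongs to the same family but carries glutamate, aspartate and cysteine inward with sodium. It was at 3.89, 8.13 and 16.7 FPKM (lowest, median and highest) in control and 2.86, 8.13 and 15.3 FPKM in treated animals. Here the animals numbered 6 were the highest of their groups, opposite to their position for SLC1A5 and SLC7A5. With a 5.82-fold distance between the extremes and a within-group SD above that of 79.3% of genes, SLC1A1 varied nearly as much as SLC7A5. The log2 difference was -0.24 (SE 0.44, limma unadjusted p = 0.600, exact permutation p = 0.636), and the interval was wide, from 0.438-fold to 1.64-fold. It was -0.04 without control replicate 6, -0.46 without treated replicate 6, 0.02 without treated replicate 3, and -0.55 with the muscle and fibroblast covariate (SE 0.52, limma unadjusted p = 0.313).

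SLC38A2 and SLC38A1 encode sodium-coupled carriers of small neutral amino acids such as alanine and glutamine. SLC38A2, the form known to be induced when amino acids run short, was at 133, 144 and 218 FPKM (lowest, median and highest) in control and 109, 136 and 170 FPKM in treated animals. It was by far the most abundant transporter of the set, with a mean above that of 97.5% of the genes tested, and each animal contributed at least 6169 reads. The highest value of each group was that of replicate 6. Its within-group SD was small, with only 19.8% of genes below it, and this made the diet comparison the tightest of the set. The log2 difference was -0.14 (SE 0.14, limma unadjusted p = 0.334, exact permutation p = 0.370), with an interval from 0.734-fold to 1.12-fold. Without control replicate 6 it was -0.04, and without both animals numbered 6 it was -0.10.

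SLC38A1 was at 5.52, 6.42 and 11.7 FPKM in control and 4.82, 9.39 and 11.6 FPKM in treated animals. In 5 of the 6 treated animals it lay above the control median, the largest such count among the 8 transporters. The log2 difference of 0.20 (SE 0.25, limma unadjusted p = 0.439, exact permutation p = 0.481) was nevertheless smaller than the spread among animals, and the interval ran from 0.790-fold to 1.67-fold. It was 0.34 without control replicate 6 and 0.30 without both animals numbered 6. Relative to SLC38A2 within the same animal, SLC38A1 was at a log2 ratio of -4.39 ± 0.34 (SD, n = 6) in control and -4.05 ± 0.48 (SD, n = 6) in treated animals. This was the largest of the ratio differences that could be read (0.34, exact permutation p = 0.182, adjusted over 4 ratios 0.645), and it kept its direction when each animal was left out in turn (0.23 to 0.50).

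SLC7A1, the main carrier of the cationic amino acids arginine and lysine, was at 1.56, 2.85 and 4.17 FPKM (lowest, median and highest) in control and 1.80, 2.89 and 4.93 FPKM in treated animals. It was the least abundant of the transporters tested, and its 69 to 205 reads per animal correspond to a counting error of up to 12.04%. The log2 difference was 0.17 (SE 0.31, limma unadjusted p = 0.585, exact permutation p = 0.600), with an interval from 0.709-fold to 1.80-fold. It was 0.08 without control replicate 6, 0.32 without treated replicate 6, and -0.22 with the muscle and fibroblast score as a covariate.

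SLC15A1, the proton-coupled carrier of di- and tripeptides, had 8 reads in all. They came from control replicates 1, 2 and 3 with 1, 2 and 3 reads and from treated replicate 1 with 2 reads, and 8 animals had none. The level of 3 reads, 0.0759 FPKM in the median animal, is the limit below which nothing can be said about either diet. Genes that define the intestinal epithelium, where SLC15A1 is best known, were also low, with VIL1, CDX1 and CDX2 at 0 reads in all 12 animals. Only LGALS4 of that list was above 1 FPKM in every animal (9.10 to 17.9 FPKM). SLC15A4, a lysosomal carrier of peptides and histidine, was at 13.1 to 20.2 FPKM and was more abundant than SLC15A3 (0.182 to 0.931 FPKM), while SLC15A2, the other main peptide carrier, was not found under that symbol and was not analysed here.

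**Figure D2:**
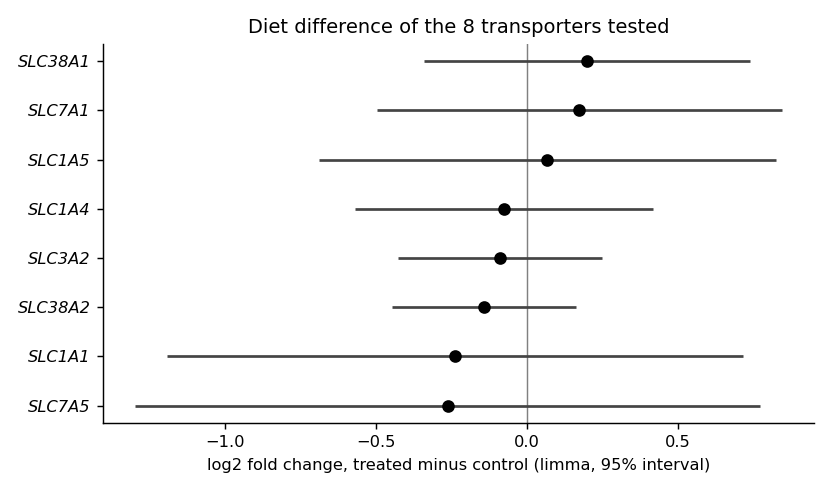
Log2 fold change of the 8 transporters tested (points; horizontal axis, treated minus control) with the 95% interval of limma (lines). All intervals include 0, from the narrowest, of SLC38A2, at -0.45 to 0.16, to the widest, of SLC7A5, at -1.30 to 0.77.

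When the transporters were ordered by their mean log2 FPKM, SLC38A2 stood first, followed by SLC3A2, SLC1A5, SLC1A4, SLC38A1, SLC1A1, SLC7A5 and SLC7A1, and then by both genes at the limit of 3 reads. SLC38A2 exceeded SLC3A2 in 12 of 12 animals (mean log2 difference 2.34, exact sign-flip permutation p adjusted over 9 neighbours 0.00220). It accounted for 56.2% to 75.2% of the summed FPKM of the 10 transporters, with medians of 61.8% in control and 61.6% in treated animals. Of the 9 neighbouring pairs, 6 were separated, meaning an adjusted exact sign-flip permutation p below 0.05 for a mean difference of 0. Those that were not were SLC38A1 and SLC1A1 (log2 difference 0.01, exact sign-flip permutation p adjusted over 9 neighbours 0.938), SLC1A1 and SLC7A5 (0.80, adjusted 0.0804), and both genes at the limit, which are not compared. Separation does not mean a difference larger than the spread. The SD exceeded the difference for SLC1A5 and SLC1A4 (0.41, SD 0.53) and for SLC1A4 and SLC38A1 (0.64, SD 0.71). One separated pair, SLC7A1 and SLC7A8, holds a gene at the limit, and the order came from the same values. The last separated pair above the limit, SLC7A5 and SLC7A1, differed in the same direction in 11 of 12 animals (log2 difference 0.68, exact sign-flip permutation p adjusted over 9 neighbours 0.0187).

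**Figure D3:**
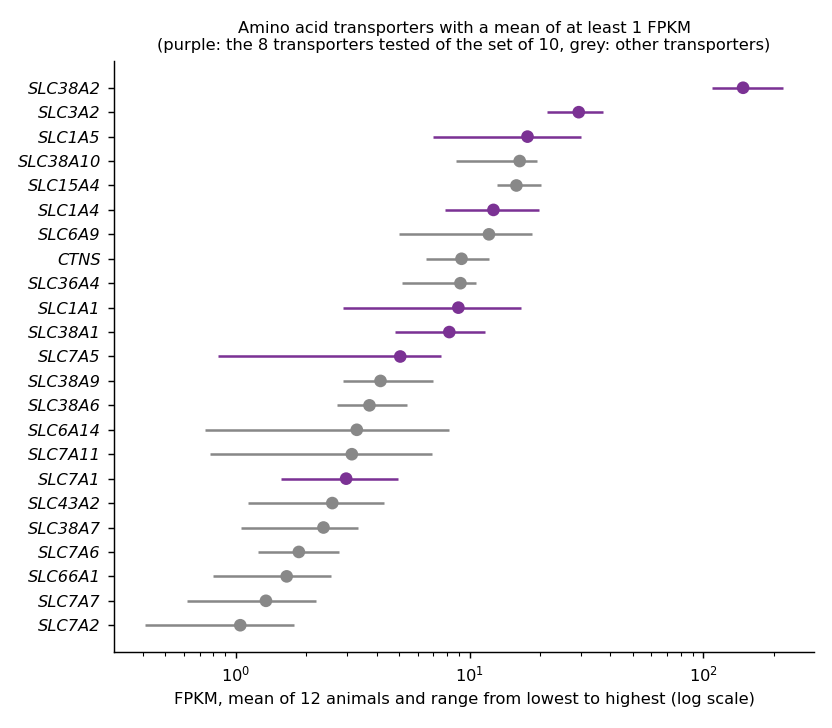
FPKM on a log scale (horizontal axis) of the amino acid transporters with a mean of at least 1 FPKM, as the mean of the 12 animals (points) and the range from the lowest to the highest animal (lines). SLC38A2 lies apart at a mean of 148 FPKM, and the next gene, SLC3A2, has a mean of 29.3 FPKM.

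Some animals lay at an end of their group for many transporters at once. Deviations from the group mean were largest in replicate 6 of both groups, which held an end of the group's range for 7 of the 8 transporters each. In control replicate 6, SLC7A5, SLC3A2, SLC1A5 and SLC1A4 were lowest while SLC1A1, SLC38A1 and SLC38A2 were highest. In treated replicate 6, the same 4 genes and SLC7A1 were lowest while SLC1A1 and SLC38A2 were highest. SLC7A5 deviated from its group mean by -1.16 and -2.26 on the log2 scale in these animals, and SLC1A1 by 0.99 and 1.10. The squamous epithelium sum, to which KRT5 contributes most, was lowest in the same animals, and its part in these positions was not tested.

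**Figure D4:**
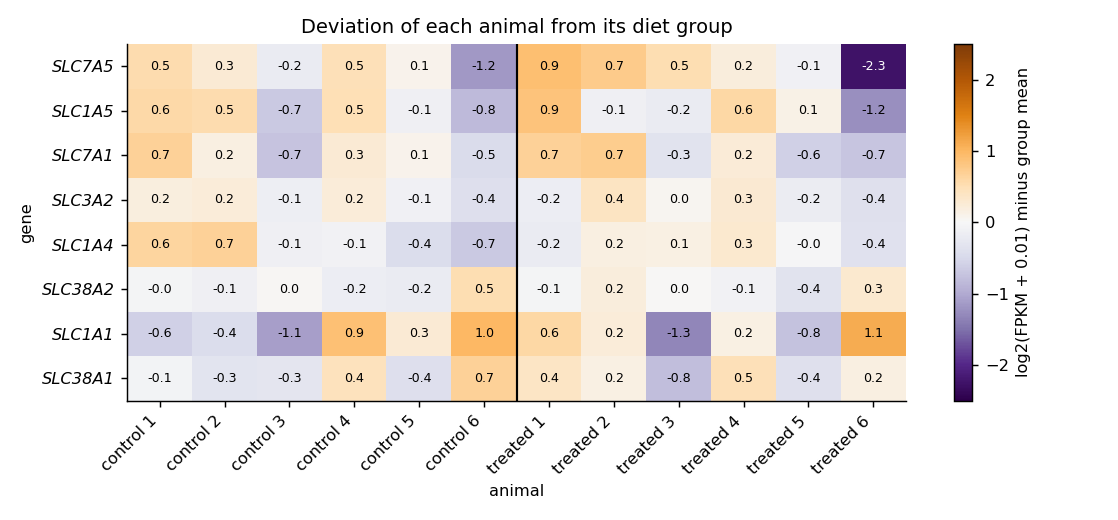
Deviation of log2(FPKM + 0.01) of each transporter tested (rows) in each animal (columns) from the mean of that animal's diet group; orange is higher and purple lower. The darkest cell is SLC7A5 in treated replicate 6 at -2.26, and in both columns numbered 6 SLC1A1 is above and SLC1A5 below the group mean.

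Over the 12 animals, Pearson correlations of log2 FPKM were computed for all 45 pairs of the 10 transporters, of which 28 join genes above the limit of 3 reads. SLC7A5 was correlated with SLC1A5 (r = 0.801, permutation p = 0.00094, adjusted over 45 pairs 0.0423; Spearman rho = 0.713, permutation p = 0.0117, adjusted 0.129). The correlation was also positive within the control group (r = 0.888) and within the treated group (r = 0.816). SLC7A5 also varied with its partner SLC3A2 (r = 0.718, permutation p = 0.00203, adjusted 0.0457; rho = 0.643, permutation p = 0.0271, adjusted 0.174; r = 0.924 in control and 0.635 in treated animals). Both relations rest on the animals numbered 6, which lie farthest from the median of SLC7A5, since r was 0.493 and 0.422, respectively, without them. Both also missed the threshold when FPKM were scaled by the median ratio (adjusted permutation p = 0.0526 and 0.0844) or by the upper quartile (0.0693 and 0.0946). They missed it without control replicate 1 (0.0661 and 0.0825) or control replicate 2 (0.0562 and 0.0760). The same held without control replicate 6 (0.122 for both) or treated replicate 6 (0.143 and 0.219). SLC7A5 with SLC3A2 alone also missed with a pseudocount of 1 (0.0525). It did so without control replicate 3 (0.0553) or 4 (0.0875) or treated replicate 2 (0.0505) or 5 (0.0566).

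For the pair of SLC7A5 and SLC7A1, r did not fall without the animals numbered 6. Its Pearson correlation did not pass the adjustment (r = 0.683, permutation p = 0.00583, adjusted over 45 pairs 0.0513), but its rank correlation did (rho = 0.860, permutation p = 0.00085, adjusted 0.0382). Without both animals numbered 6 r was 0.813 and did not pass either (adjusted permutation p = 0.198). It also missed with median ratio (adjusted 0.0911) and upper quartile scaling (adjusted 0.0946). SLC1A1 and SLC38A1, both highest in control replicate 6, had r = 0.752 (permutation p = 0.00684, adjusted over 45 pairs 0.0513; rho = 0.699, permutation p = 0.0143, adjusted 0.129), and 0.686 without both animals numbered 6. SLC3A2 and SLC1A4 had r = 0.768 (permutation p = 0.00349, adjusted 0.0513), and 0.647 without both. For SLC1A5 and SLC7A1 r was 0.744 (permutation p = 0.00629, adjusted 0.0513), and 0.655 without both. Neither of these pairs passed by rank (adjusted permutation p = 0.0945 and 0.0902). SLC38A2 had no correlation past the threshold with any transporter, and its r with SLC1A5 was -0.654 (permutation p = 0.0181, adjusted over 45 pairs 0.116; rho = -0.601, permutation p = 0.0435, adjusted 0.244; -0.337 without both animals numbered 6).

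The 8 transporters were then set beside the mean log2 FPKM of 7 lists of cell type markers, 56 relations in all, of which 2 passed the adjustment. Only that of SLC1A5, which had the smaller r of the 2 and did not pass by rank, is described. In a bulk sample such as this, fewer cells of a type and less RNA per cell cannot be told apart. SLC1A5 was correlated with the squamous epithelium list (r = 0.868, permutation p = 0.000330, adjusted over 56 relations 0.00924; rho = 0.776, permutation p = 0.00413, adjusted 0.0928). Within the groups r was 0.845 in control and 0.932 in treated animals. The animals numbered 6 lie farthest from the median of this list, and without them r fell to 0.689 and no longer passed the adjustment (adjusted 0.312). The list holds LORICRIN, which was at 0 in both of these animals and for which the added 0.01 FPKM sets the log value. Without LORICRIN, r with the remaining 8 genes was 0.760 and missed the threshold (permutation p = 0.00444, adjusted over 56 relations 0.0626), and it was 0.342 when both animals numbered 6 were left out as well. SLC7A5 had a similar relation that did not pass (r = 0.806, permutation p = 0.00298, adjusted over 56 relations 0.0556; rho = 0.573, permutation p = 0.0558, adjusted 0.284), and for this gene r was 0.285 without both animals numbered 6. Without LORICRIN, r of SLC7A5 was 0.817 (permutation p = 0.00447, adjusted 0.0626), higher than that of SLC1A5. SLC3A2 (r = 0.736, permutation p = 0.00458) and SLC38A2 (r = -0.740, permutation p = 0.00552) also just missed the threshold with the full list (adjusted 0.0618 for both). Without both animals numbered 6, r was 0.427 and -0.301, respectively. Without LORICRIN it was 0.511 for SLC3A2 (adjusted 0.375) and -0.758 for SLC38A2 (adjusted 0.0626). With the fibroblast list, r was -0.724 for SLC7A1 (adjusted permutation p = 0.0707) and -0.588 for SLC7A5 (adjusted 0.197). Without both animals numbered 6, these were -0.650 and -0.668.

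**Figure D5:**
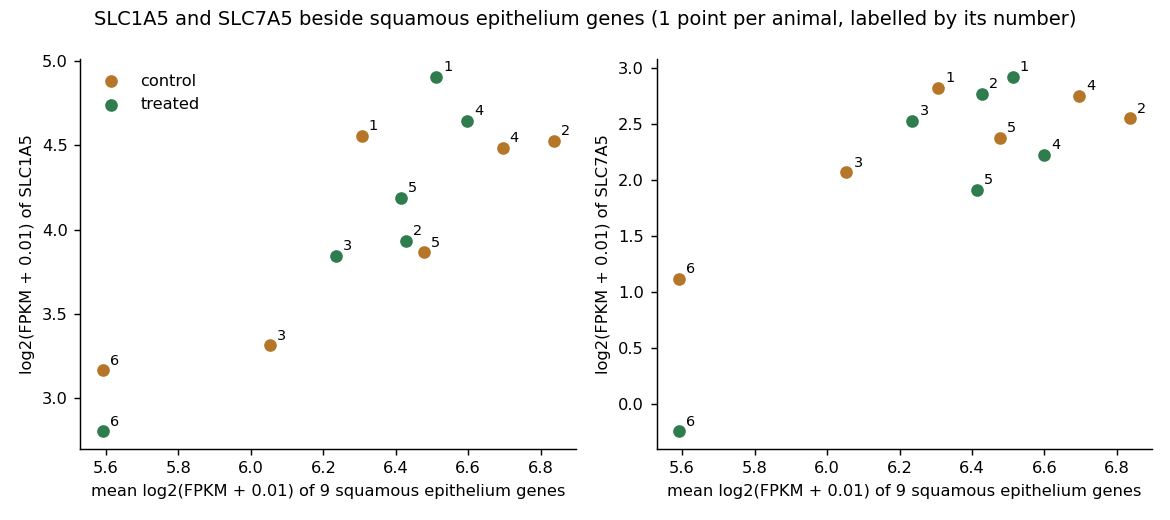
Log2 FPKM of SLC1A5 (left) and of SLC7A5 (right) against the mean log2 FPKM of 9 squamous epithelium genes (1 point per animal, numbered, orange control and green treated). Both animals numbered 6 lie at the lower left, and r is 0.868 and 0.806 with them and 0.689 and 0.285 without them.

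Other genes of amino acid and peptide transport were examined in the same way. Of 46 further genes listed, 42 were found in the table, 21 were tested and 0 had an unadjusted limma p below 0.05, against 1.83% of all genes. Their median log2 fold change was -0.07, with 10 of 21 above 0. The smallest limma p was that of SLC16A10, a carrier of aromatic amino acids, which was at 0.475 ± 0.330 FPKM (SD, n = 6) in control and 0.200 ± 0.125 FPKM (SD, n = 6) in treated animals (log2 difference -1.10, SE 0.60, limma unadjusted p = 0.0859, exact permutation p = 0.0974). SLC16A10 had only 2 to 26 reads per animal, the lowest within the limit of 3 reads. A mean of at least 1 FPKM was reached by 15 of the 42. The most abundant was SLC38A10 (mean of the 12 animals 16.4 FPKM), followed by SLC15A4 (15.9 FPKM), the glycine transporter SLC6A9 (12.1 FPKM), the lysosomal cystine carrier CTNS (9.24 FPKM) and SLC36A4 (9.14 FPKM). Lower levels were found for SLC38A9, an arginine sensor of the lysosome (4.16 FPKM), SLC38A6 (3.73 FPKM), the broad neutral and cationic carrier SLC6A14 (3.29 FPKM), SLC7A11 (3.14 FPKM), SLC43A2 (2.59 FPKM), SLC38A7 (2.37 FPKM), SLC7A6 (1.86 FPKM), SLC66A1, listed under its older symbol PQLC2 (1.65 FPKM), SLC7A7 (1.35 FPKM) and SLC7A2 (1.05 FPKM). At the other end, 14 of the 42 did not exceed 3 reads in any animal and 8 of these had none at all. Among those at 0 was SLC6A19, the neutral amino acid carrier of the intestinal brush border.

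Shortage of amino acids is known to raise several of these transporters through the kinase GCN2 and the transcription factor ATF4, so the genes of that response were examined as well. All 13 were tested, and 0 had an unadjusted limma p below 0.05, against 1.83% of all genes tested. At that share, 0 of 13 is not read as a result about the response. The median log2 fold change of the 13 was -0.03, with 5 above 0. ATF4 itself was at 90.4 ± 23.1 FPKM (SD, n = 6) in control and 90.1 ± 18.8 FPKM (SD, n = 6) in treated animals. ASNS, the asparagine synthetase that is a classical target, was at 35.0 ± 10.1 FPKM (SD, n = 6) and 30.8 ± 2.44 FPKM (SD, n = 6), respectively, with a log2 difference of -0.14 (SE 0.16, limma unadjusted p = 0.418). The kinase gene EIF2AK4 had a mean over the 12 animals of 9.57 FPKM, its activator GCN1 14.98 FPKM, and its substrate EIF2S1 58.7 FPKM. Of the remaining targets and regulators, DDIT4 (14.3 FPKM), CEBPB (10.2 FPKM) and DDIT3 (7.12 FPKM) were the most abundant, while ATF5 (2.84 FPKM), SESN2 (2.61 FPKM), ATF3 (2.16 FPKM), TRIB3 (0.982 FPKM) and CHAC1 (0.357 FPKM) were lower. ATF3 had the smallest limma p of the list (log2 difference 0.41, SE 0.31, unadjusted p = 0.217).

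For each transporter, the 3 genes whose log2 FPKM followed it most closely over the 12 animals were taken from all 16450 genes tested, as a description that includes both animals numbered 6. SLC7A5 was closest to SMARCA4, a chromatin remodelling ATPase (r = 0.984), CDC42BPB and ARRDC1. SLC1A5 was followed by LOC112578009 (r = 0.970), MTA2 and MOV10, and SLC1A1 by XPNPEP1, an aminopeptidase (r = 0.955), CXCL16 and OSBPL3. For SLC38A2 the closest genes were CPNE8 (r = 0.947), SPTY2D1 and TMEM161B, and for SLC7A1 they were RHBDF2 (r = 0.941), STK40 and GRK5. SLC38A1 was closest to WAS (r = 0.926), JOSD1 and CMPK2. The weakest of these likenesses were those of SLC3A2, with CEP164 (r = 0.917), RANGRF and CPT1A, and of SLC1A4, with SH3TC2 (r = 0.897), CERS2 and CILP2. SH3TC2 and CILP2 had means of only 0.263 and 0.155 FPKM, near the 0.1 FPKM required for testing, and LOC112578009 was at 0.851 FPKM. As the highest of 16450 genes over 12 animals, these r values were not tested against chance. The lists of the 8 transporters shared no gene.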

How the data were processed

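Total RNA of the ruminal wall of 12 animals was sequenced from stranded libraries. According to the methods and the submitters' processing notes, reads were checked with FastQC 0.11.5, trimmed with Trimmomatic 0.39, aligned to UOA_WB_1 with STAR 2.5.2b and counted per gene and strand with featureCounts 2.0.0. The authors deposited FPKM values per gene and animal, and the tool and gene lengths behind them are not given in the sources used here. No filter had been applied, and 4 further columns without a sample label were not used.

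Within a gene, each FPKM is a whole multiple of what 1 read is worth. From this alone, gene lengths, totals and reads were recovered for all 22972 genes above 0 (whole within 0.001). Genes with 3 reads or fewer were treated as being at the limit. Intervals and limits cover counting error only, beside the spread between animals.

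Groups and replicate numbers follow the sample descriptions, which run from 1 to 6 in each group and stand for different animals. The sample titles and the table's columns use other numbers for control replicate 6 and for the treated animals, so the replicate block and the numbers in the text rest on the descriptions. The 16450 genes that reached 0.1 FPKM in 6 or more animals were tested with limma 3.58.1 in R 4.3.3 (lmFit, eBayes with trend) on log2(FPKM + 0.01), two-sided, with Benjamini-Hochberg adjustment. Fold changes are on that scale. Single genes and ratios were also given a two-sided exact permutation test over 924 assignments (smallest p 0.00216), neighbours in the order an exact sign-flip test, and correlations 100000 permutations. The study's own threshold, an unadjusted p below 0.05, was used beside the adjusted one. The limma fit was tested on simulated log2 values. These were independent and normal, without the zeros or the outlying animals of the data. Python 3.11.15, numpy 2.4.6, scipy 1.17.1, pandas 2.3.3 and matplotlib 3.10.9 were used.

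The transporters, the gene lists and the markers were chosen with earlier results of these data known. Genes named were the 10 transporters, the 3 genes most like each, other transporters with a mean of at least 1 FPKM or an unadjusted p below 0.05, and all amino acid response genes. SLC16A10, SLC6A19, SLC7A10 and marker genes were named after their values were seen. Alternatives were other pseudocounts (0.1 and 1), filters and scalings, robust variance, the replicate block, a muscle and fibroblast covariate and each animal left out. A voom fit of the recovered reads, the removal of both animals numbered 6 and the relations with marker lists under these settings and without LORICRIN were added once the data had been seen. The other relation with a marker list that passed is not reported here.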

Additional observations from a re-analysis of the deposited data

Results flagged for a closer look

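Of 84 groups of 6 animals examined for a value far from the others (the 10 transporters, the log2 ratios and the other named transporter and amino acid response genes), 9 held one. The cutoff would flag about 4.2 of 84 independent groups of normal values. These groups share the same animals and hold genes near 0 FPKM, so the count is not read as an excess. In the control group, SLC38A2 was at 218 FPKM in replicate 6, with the next animal at 157 FPKM. SLC7A8 had 0.0484 FPKM (2 reads) in control replicate 6 and 0 in the other 5 control animals, and SLC15A1 had 0.0510 FPKM (2 reads) in treated replicate 1 and 0 in the other 5 treated animals, both at the limit of 3 reads. The log2 ratio of SLC7A5 to SLC7A8 was accordingly 5.22 in control replicate 6, against 8.71 in the next animal, and depends on the added 0.01 FPKM. SLC6A14 was at 8.19 FPKM in treated replicate 6, against 2.69 FPKM in the next treated animal, and SLC38A10 was lowest there at 10.01 FPKM, with the next at 16.1 FPKM. CTNS was highest in control replicate 6 at 12.1 FPKM (next 9.87 FPKM), SLC36A4 lowest in control replicate 5 at 7.73 FPKM (next 9.65 FPKM), and CEBPB highest in treated replicate 4 at 14.2 FPKM (next 9.75 FPKM). Of the 9 values, 6 came from the animals numbered 6.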

How the results depend on the processing

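No transporter of the 10, and no amino acid response gene, had an unadjusted limma p below 0.05, and no gene an adjusted one, under any alternative run. Genes with an unadjusted p below 0.05 numbered 301 (168 higher) and became 562 with all 22972 genes above 0 tested, 151 with at least 1 FPKM required (12185 genes), 468 with the muscle and fibroblast covariate, 295 with voom and 451 without both animals numbered 6. Scaling by the upper quartile gave 297, of which 132 were higher. Leaving out each animal gave 283 to 465, the highest without treated replicate 6. The replicate block gave 464. Same-numbered animals correlated in their deviations between -0.0280 and 0.221, not above 0.1 for every number, and share only a number. Replicates 3, 4 and 6 correlated best with their own number. Of the other transporters, 0 to 1 passed when each animal was left out (1 without control replicate 4 or treated replicate 6).

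Directions that turned were those of SLC1A5 (-0.15) and SLC7A1 (-0.22) with the muscle and fibroblast covariate, which also took SLC7A5 to -0.70, SLC1A1 to -0.55 and SLC3A2 to -0.17, and of the ratio of SLC7A5 to SLC3A2 (0.048) without both animals numbered 6. With each animal left out, the log2 difference was -0.50 to 0.19 for SLC7A5, -0.10 to 0.32 for SLC1A5, -0.21 to 0.058 for SLC1A4 and -0.46 to 0.025 for SLC1A1. The ratio of SLC7A5 to SLC3A2 was -0.39 to 0.20 and that of SLC1A5 to SLC1A4 -0.070 to 0.32. None of these passed a threshold, and the cause was not tested.

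The 2 correlated pairs of transporters became 1 with a pseudocount of 1, 0 with either scaling, 0 to 5 with each animal left out and 0 without both animals numbered 6. They were 0 without control replicate 1, 2 or 6 or treated replicate 6. The 2 relations with marker lists became 4 with a pseudocount of 0.1, 1 with a pseudocount of 1, 4 with median ratio and 1 with upper quartile scaling, 1 to 5 with each animal left out, 0 without both animals numbered 6, and 1 without LORICRIN. That of SLC1A5 with squamous genes missed with a pseudocount of 1 (0.0542) and without control replicate 3 (0.0501) or treated replicate 6 (0.0535). In the order by level, 5 to 6 neighbours were separated with each animal left out.

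Depth limits SLC7A8 and SLC15A1, for which nothing at or under 3 reads can be read. With 6 animals a group, the intervals printed give the precision of each difference.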
